A study of Ovis aries with 12 samples.

Results

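The comparison described here sets FecB BB against FecB ++ ewes in the luteal phase of the oestrous cycle, in RNA from the isthmus of the oviduct. Its members were chosen by genotype and phase alone: the 3 libraries labelled FecB BB luteal (ML1, ML2 and ML3) and the 3 labelled FecB ++ luteal (wL1, wL2 and wL3), 6 of the 12 libraries of the series, with all of their transcripts and gene sums. The other 6 libraries come from FecB BB and FecB ++ ewes in the follicular phase (MF and wF, 3 each) and served to estimate the spread and to test whether a genotype difference depended on phase. All ewes were Small-Tailed Han sheep of 2.5 ± 0.5 years and 70 ± 5 kg, and each library came from a different ewe. ML and wL ewes alike, and also the follicular groups, had carried a vaginal device with 300 mg of progesterone for 12 days, and the luteal ewes were killed on day 9 after its removal. The groups therefore share the hormone treatment, and a difference between ML and wL is one of genotype and of whatever else set these 6 ewes apart.

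FecB is a point substitution in BMPR1B, the type 1 receptor for bone morphogenetic proteins (BMPs), and ewes that carry it ovulate more follicles. BMP receptors phosphorylate SMAD proteins, which enter the nucleus with SMAD4 and switch target genes, while secreted antagonists such as follistatin keep ligands from the receptor. The isthmus, a narrow tube with a thick muscle coat, joins the oviduct to the uterus: its ciliated and secretory epithelium stores sperm and nourishes the early embryo, and its smooth muscle moves the embryo towards the uterus under the influence of progesterone in the luteal phase. As a single base change, FecB alters the receptor and not the amount of its RNA by itself, so the level of BMPR1B gives no check of the genotype labels. A figure legend of the study gives the group codes the opposite genotypes. The sample titles were followed here, and the methods of the study give the same genotypes as these.

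The values were FPKM, fragments scaled to the length of the transcript and to all mapped fragments, of 63643 transcripts, 43674 of the mRNA class and 19969 long noncoding RNAs (lncRNAs). FPKM of the 6 libraries summed to 349733, 371526 and 354791 in ML and to 421341, 379288 and 391489 in wL, so that the groups did not overlap (exact permutation test, 2-sided, p = 0.1, the smallest that 3 against 3 libraries allow). LncRNAs took 8.98, 6.16 and 6.84% of the sum in ML and 3.80, 5.39 and 3.55% in wL (exact p = 0.1). A single lncRNA, LNC_006353, held much of this share in both groups (values below), so the difference need not be one of lncRNAs as a class. Read counts were not used here, so no counting interval is given. The fragments behind the FPKM were estimated from values under 0.05 FPKM and set to 1 in wL1. The estimates were 0.731 to 0.844 in ML and 0.837 to 1.03 in wL. Outside wL1 only 2.36 to 3.19% of the values used in each luteal library stood at the ratio chosen, so these estimates are rough. EEF1D, a translation factor that every cell uses, was listed at 0 in 4 of the 6 luteal libraries for all of its named transcripts. Either the estimate failed there or transcripts without a name here held the FPKM. A 0 in this table thus need not mean absent RNA and is given below as "listed at 0".

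The tissue mixture differed among the luteal libraries and within both groups. Markers of ciliated cells, as the mean log2(FPKM + 0.1) of the list, stood at 5.30, 3.65 and -1.22 in ML1 to ML3 and at 5.59, 3.89 and 5.54 in wL1 to wL3. In ML3 the cilium genes SPAG6, SPEF2 and CFAP45 were listed at 0. Markers of smooth muscle ran the other way, with 6.67, 8.16 and 8.93 in ML and 6.07, 8.27 and 5.96 in wL. ML2, ML3 and wL2, together with wF2 of the follicular phase, formed 1 side of the first principal component of the 12 libraries (36.7% of the variance), and the counts of calls are also given without these 4 libraries. Of the lists, 20 of 20 tested ciliated genes had a fitted luteal change below 0 and 11 of 11 smooth muscle genes had one above 0, but 0 and 0 of them passed the adjusted test, since ML1 resembled wL1 and wL3 while wL2 resembled ML2. Leukocyte markers were 1.43, 1.08 and 0.892 in ML and 1.56, 1.73 and 1.47 in wL. In bulk tissue, fewer cells of a type and less RNA per cell cannot be told apart. Oviductin, the glycoprotein of secretory cells that the study names for NM_001009779.1, was at 1338, 1.01 and 0.961 FPKM in ML and 4792, 4.09 and 5031 in wL, so both groups held libraries with hardly any of it. The part of this mixture in the results below was not tested beyond the fits with a muscle or a cilia score, whose counts are given.

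**Figure D1:**
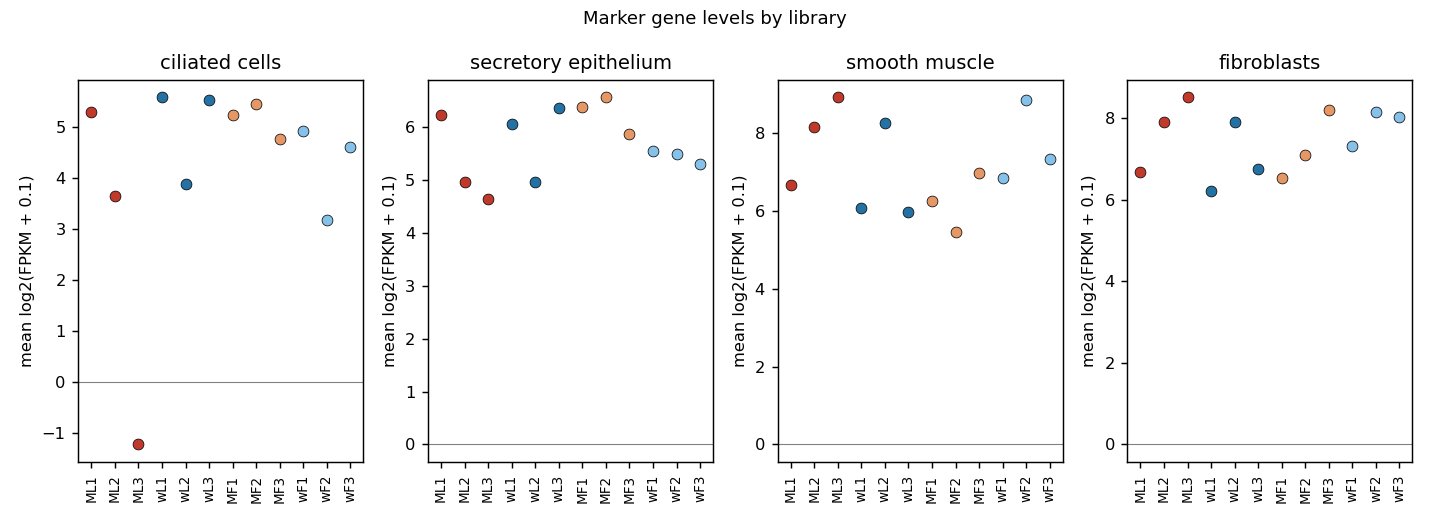
Mean log2(FPKM + 0.1) of the marker genes of 4 cell types in each of the 12 libraries, 1 point per library. Ciliated markers lie at -1.22 in ML3 against 5.30 in ML1 and 5.59 in wL1, and smooth muscle markers are highest among the luteal libraries in ML3 (8.93), ML2 (8.16) and wL2 (8.27).

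Between ML and wL, 10 of 31290 mRNA transcripts tested passed the threshold (0.032%), and every one of them was lower in FecB BB. A call here means an adjusted p under 0.05 over all transcripts of the kind together with a log2 change of 1 or more in either direction, in a limma fit of log2(FPKM + 0.1) with 4 group means over 12 libraries. The 10 transcripts belong to genes of unlike function: PARD3 (cell polarity), LIG4 (DNA end joining), WAPL (cohesin release), CEP152 (centriole duplication), RBM27 (RNA binding), KASH5 (meiotic chromosome movement), ZNF354C (a zinc finger protein), KIAA1217, FAM217B and a transcript that carries no gene name here. Of the 10, 6 were listed at 0 in all 3 ML libraries and 9 were under 0.05 FPKM in all 3. Without adjustment 2887 transcripts (9.23%) had a p under 0.05, 1145 higher and 1742 lower in ML. That split turned to 1689 higher and 1102 lower after the libraries had been rescaled to equal sums, which moved the median change of all mRNA transcripts from -0.062 to 0.051. The 10 calls themselves did not depend on that scaling: 10 of 10 were made again with rescaled values and 10 of 10 with quantile normalization.

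In 5 of the 10 the luteal FecB BB group stood apart from all other groups, because the transcript was present in the follicular libraries of both genotypes. PARD3, the scaffold that places tight junctions at the apical side of epithelial cells, had its transcript XM_015099548.1 at 0.0087, 0.000807 and 0.000783 FPKM in ML and at 2.30, 3.29 and 2.06 in wL. In the follicular phase this transcript was at 1.55, 1.55 and 2.26 in MF and at 2.26, 2.91 and 2.62 in wF. All 3 ML libraries were thus far below the 9 others (log2 change -4.65, SE 0.34, limma adjusted p = 0.0020, a size that the added 0.1 holds down). The interaction of genotype and phase of PARD3 was -4.12 (SE 0.49, adjusted p = 0.040), a call that was lost with equal sums (0.055), quantile normalization (0.078), an added value of 1 (0.44) or a replicate block (0.19).

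WAPL removes cohesin rings from chromosomes. Its transcript XM_012105453.2, the only one named for the gene, was listed at 0 in ML1, ML2 and ML3 and was at 5.41, 4.73 and 1.66 FPKM in wL (limma adjusted p = 0.018). Follicular values of WAPL ran from 1.01 to 3.46 in the 6 libraries, so no other group was at 0. CEP152 is a scaffold on which new centrioles form. The transcript XM_012181622.2 of CEP152 was listed at 0 in ML against 1.71, 1.82 and 1.05 in wL (adjusted p = 0.023), and it was present at 1.22 to 1.74 in MF and 0.413 to 1.38 in wF.

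RBM27 binds RNA and takes part in the turnover of nuclear transcripts. Its transcript XM_012178690.2 was at 0, 0 and 0.00198 FPKM in ML and at 0.897, 0.824 and 1.07 in wL (limma adjusted p = 0.018), beside means of 0.719 ± 0.0125 in MF and 0.908 ± 0.248 in wF (SD, n = 3). The unnamed transcript XM_012177086.1 was the only called one that ML expressed at a plain level, with 9.37, 7.01 and 3.75 in ML against 30.2, 30.6 and 33.5 in wL. It fell in ML by 2.31 on the log2 scale (SE 0.29, adjusted p = 0.034). Its follicular means were 20.1 ± 1.10 in MF and 27.5 ± 4.92 in wF, so the 3 ML values were the lowest of all 12 libraries.

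The other 5 called transcripts were seen in wL only, with values under 0.05 FPKM in each of the 9 libraries outside wL. LIG4 joins the broken ends of DNA in double-strand break repair, and its transcript XM_012184942.1, at 1.93, 3.59 and 1.86 FPKM in wL, was listed at 0 elsewhere (limma adjusted p = 0.0037, interaction adjusted p = 0.040, or 0.055 with equal sums). KIAA1217, known in the mouse for a part in the development of the spine, had XM_012188338.2 at 1.04, 0.774 and 1.13 in wL and at 0 in the 9 other libraries (adjusted p = 0.011). A second transcript of KIAA1217, XM_012188341.2, had the same pattern with 1.32, 0.374 and 1.28 in wL but did not pass (adjusted p = 0.074).

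KASH5 couples meiotic chromosomes to the motor dynein across the nuclear envelope, and is known from germ cells. Its transcript XM_012190689.2 was at 0.801, 0.444 and 0.667 FPKM in wL and listed at 0 in ML, MF and wF (limma adjusted p = 0.034). ZNF354C, a zinc finger protein with a repressor domain, had XM_015095487.1 at 0.596, 0.434 and 0.567 in wL and at 0 in ML (adjusted p = 0.035). For FAM217B the transcript XM_012188901.1 was at 0.0131, 0 and 0.00414 in ML against 1.32, 1.08 and 1.38 in wL (adjusted p = 0.0084). All 5 lay under 4 FPKM in every library.

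**Figure D2:**
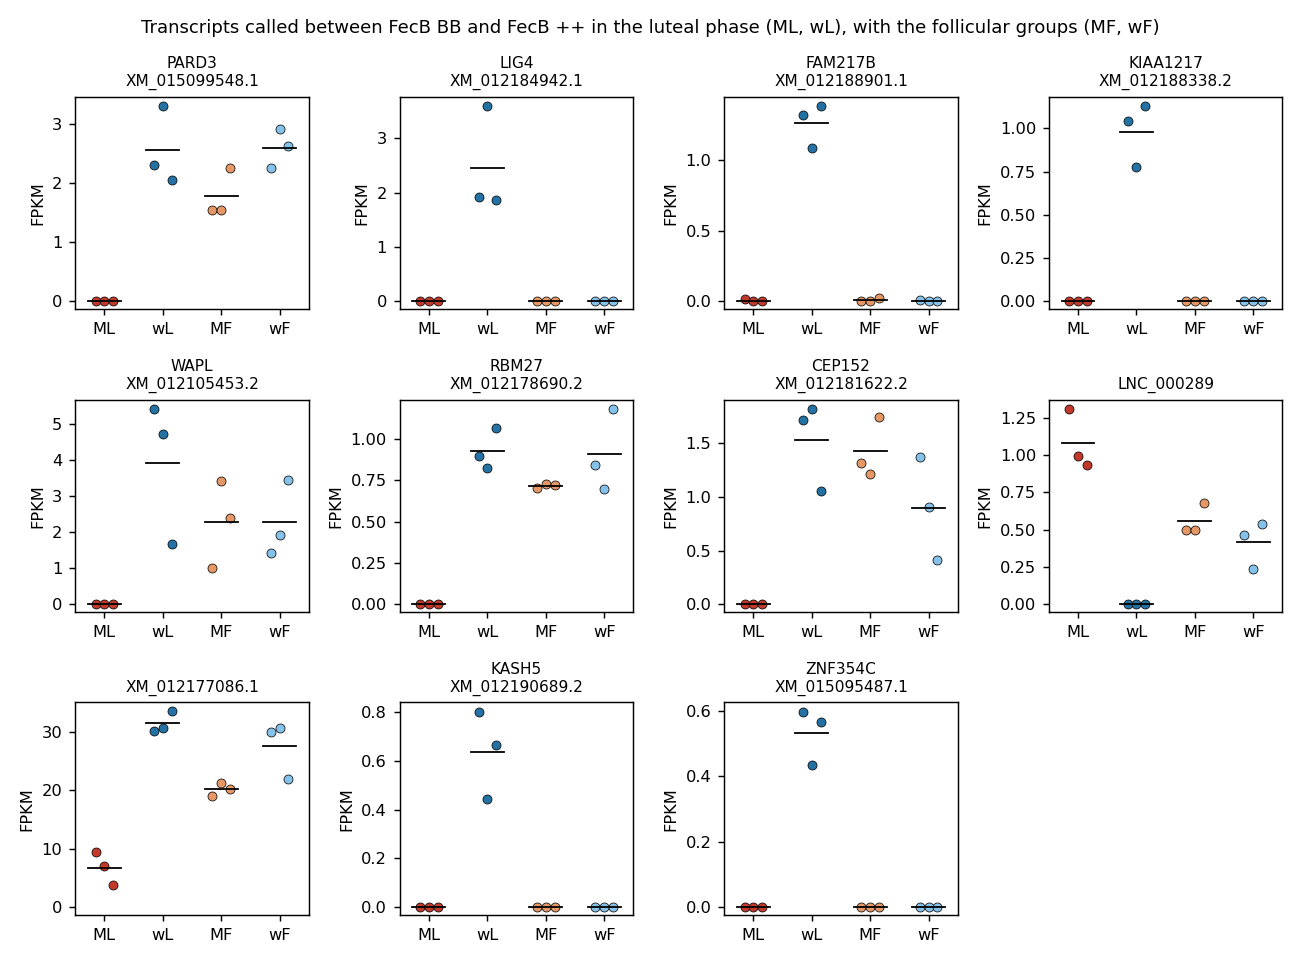
FPKM of the 10 mRNA transcripts and the lncRNA called between ML and wL, 1 point per library with the group mean as a line, for the luteal (ML, wL) and the follicular groups (MF, wF). PARD3, WAPL, RBM27, CEP152 and XM_012177086.1 are present in both follicular groups, while LIG4, FAM217B, KIAA1217, KASH5 and ZNF354C are seen in wL only.

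The calls rested on few libraries. PARD3, LIG4, FAM217B, KIAA1217 and WAPL passed with any 1 luteal library left out, while RBM27 (adjusted p = 0.069), KASH5 (0.094), ZNF354C (0.097) and XM_012177086.1 (0.12) did not pass without wL3, and CEP152 (0.057) and XM_012177086.1 (0.072) did not without wL1. A limma fit of the 6 luteal libraries alone called 0 of the 10, with adjusted p between 0.12 and 0.23, and a fit with a score of smooth muscle or of ciliated markers as a covariate called PARD3 and LIG4 of them. Without ML2, ML3, wL2 and wF2, where ML1 alone stands for its group and is taken to vary like the others, 223 transcripts were called, 7 of the 10 among them.

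Most of the called transcripts are 1 of several named for their gene. In some of these genes, PARD3 and CEP152 among them, other named transcripts took up a part of the difference. In LIG4, FAM217B and KIAA1217 they did not. For PARD3, ML1 carried XM_015099560.1 at 2.92 FPKM and ML3 carried XM_015099553.1 at 1.93, and the 3 named transcripts together came to 2.93, 1.45 and 1.94 in ML against 2.30, 3.83 and 2.06 in wL (exact permutation p = 0.5). The 2 groups thus overlapped in the sum of these 3 and differed in which of them held the FPKM. All 3 took their names from the study's list of differentially expressed transcripts. Other PARD3 transcripts can be missing, so neither the total of the gene nor an exchange within it is shown. For RBM27 the named sums overlapped too, as its called transcript was a small part of 21.4, 16.7 and 13.5 in ML against 17.5, 16.1 and 19.4 in wL (exact p = 0.9). Totals of the named transcripts also overlapped for KIAA1217, with 3.96, 2.64 and 3.31 against 4.08, 3.33 and 5.51 over 6 transcripts (exact p = 0.2), and for ZNF354C, with 2.13, 2.31 and 2.17 against 1.72, 2.99 and 2.47 over 4 (exact p = 0.7).

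For LIG4, CEP152 and FAM217B the total was lower in ML as well, though it did not pass the test. LIG4 over 6 transcripts came to 1.19, 6.95 and 2.04 FPKM in ML and to 7.76, 8.85 and 6.92 in wL (log2 change of the gene sum -1.56, SE 0.51, limma adjusted p = 0.38). The ML2 value of LIG4 reached the wL range through XM_012184941.2 (6.37 FPKM), and without ML2 the gene sum had an adjusted p of 0.032. CEP152 came to 0.0698, 0.365 and 0.573 in ML, all from XM_012181617.2, and to 1.71, 1.82 and 1.05 in wL, where that transcript was listed at 0. The total of FAM217B was 1.49, 1.45 and 0.186 in ML against 2.36, 2.56 and 2.52 in wL (exact permutation p = 0.1, the smallest possible).

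A like contrast between named transcripts was seen, short of the threshold, in 2 genes with larger values. Each had transcripts named from the study's list of differentially expressed transcripts, so others can be missing. TJP1 encodes ZO-1, the plaque protein of tight junctions. Its transcript XM_012098597.2 was at 0.0661, 0.0357 and 0.089 FPKM in ML and at 12.0, 6.79 and 12.0 in wL (limma adjusted p = 0.19), while XM_015101949.1 was at 6.93, 3.90 and 0.654 in ML and listed at 0 in wL. The 3 named transcripts of TJP1 summed to 15.2, 10.2 and 0.756 in ML and to 12.1, 15.9 and 12.0 in wL, so ML1 and ML2 lay near the wL range and ML3 far under it. In the follicular phase the same 3 summed to 0.047, 7.34 and 7.16 in MF and to 0.020, 0.017 and 0.048 in wF. Their sum therefore need not be the total of TJP1. EIF2AK4 encodes GCN2, the kinase that senses uncharged transfer RNA when amino acids run short. Of its 2 named transcripts XM_004010439.3 was at 11.2, 4.88 and 12.5 in ML and 1.35, 1.87 and 0.688 in wL (log2 change 2.77, SE 0.42, adjusted p = 0.092), and the other, XM_012181188.2, was at 0, 9.92 and 0 in ML and 7.02, 5.14 and 4.58 in wL. Together they gave 11.2, 14.8 and 12.5 in ML against 8.37, 7.01 and 5.27 in wL, a sum of the 2 that was higher in each ML library than in any wL library (exact permutation p = 0.1).

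**Figure D3:**
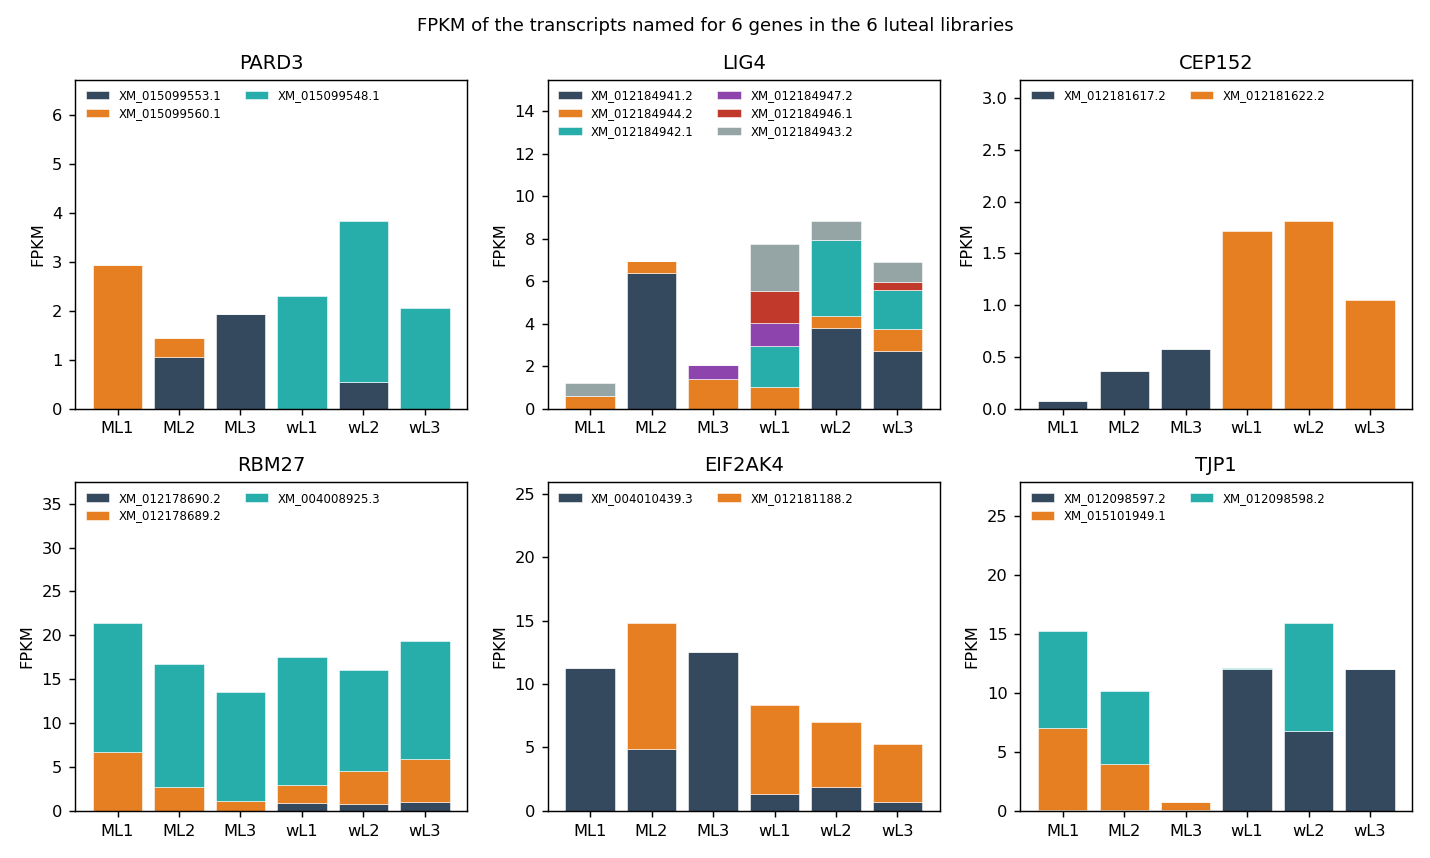
FPKM of the named transcripts of 6 genes, stacked, in the 6 luteal libraries. The main named transcript of PARD3 and of TJP1 differs between most ML and wL libraries, ML2 and wL2 share transcripts in PARD3, EIF2AK4 and TJP1, and the sums of the named PARD3 transcripts (2.93, 1.45 and 1.94 against 2.30, 3.83 and 2.06) overlap.

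Among transcripts that did not pass, ELF2, an ETS family transcription factor, came closest. Its XM_012097467.2 was at 9.97, 13.2 and 6.13 FPKM in ML and at 1.21, 1.78 and 1.22 in wL (log2 change 2.67, SE 0.37, limma adjusted p = 0.066). After rescaling to equal sums the adjusted p was 0.042, so this transcript lay on the threshold, and a dependence of the genotype difference on phase was not shown (interaction adjusted p = 0.55, with follicular means of 7.45 in MF and 0.510 in wF). ARHGAP5, a GTPase-activating protein, had a single paired transcript at 0, 2.35 and 0 in ML against 29.4, 19.2 and 39.5 in wL (adjusted p = 0.092).

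Further transcripts were lower in every ML library than in any wL library, with adjusted p above the threshold. RAB27A, a GTPase of secretory granules, was listed at 0 in ML and at 0.557, 3.30 and 3.25 FPKM in wL (limma adjusted p = 0.19). TSPAN14, a membrane protein that partners the sheddase ADAM10, was at 0.016, 0.0277 and 1.59 in ML and 8.93, 12.6 and 11.7 in wL (adjusted p = 0.23). MRPS21, a protein of the mitochondrial ribosome, was at 4.39, 7.63 and 4.62 in ML and 34.0, 21.0 and 16.6 in wL (log2 change -2.07, SE 0.37, adjusted p = 0.23). On the higher side SMOC2, a matrix protein, was at 3.0, 2.06 and 11.5 in ML against 0, 0.489 and 0 in wL (adjusted p = 0.25). FOLR3, a folate receptor, was at 4.75, 24.3 and 92.2 in ML and 0.269, 0.308 and 0.932 in wL (adjusted p = 0.26).

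Transcripts that were listed at 0 in all libraries of 1 luteal group and present in all of the other were about as many in each direction. Of the 43674 mRNA transcripts in the table, 155 (0.355%) were at 0 in ML and above 0 in wL, and 152 (0.348%) the reverse. The same count between the follicular genotypes was 153 (0.35%) and 114 (0.261%). Where each library of the expressing group had to reach 1 FPKM, 11 (0.0252%) and 9 (0.0206%) were left in the luteal phase. Those at 0 in ML include, beside LIG4, WAPL and CEP152, a transcript of TMEM214 (13.8, 17.0 and 15.0 FPKM in wL), a protein of the endoplasmic reticulum, and 1 of SUPT5H (5.78, 6.90 and 1.73), a factor of transcription elongation. Those at 0 in wL include a transcript of CBLB (3.05, 2.45 and 1.95 in ML), a ubiquitin ligase. WDR47 and NSG1 stood in both lists with different transcripts: XM_012177676.2 of WDR47, a microtubule protein, was at 7.65, 4.77 and 9.71 in wL and XM_012177663.2 at 2.24, 1.97 and 1.39 in ML.

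Summed over the paired transcripts of each gene, 0 of 8676 genes (0%) passed in limma, with 1133 genes (13.1%) at an unadjusted p under 0.05, 333 higher and 800 lower in ML. The split was 552 higher and 371 lower after rescaling to equal sums, as the median change of all genes moved from -0.157 to -0.019, so the excess of lower genes is not independent of the scale. By left-out library the number of genes called lay between 0 and 12, with 12 without ML2, 8 without ML1 and 1 without wL2. Without ML2, ML3, wL2 and wF2 it was 14. The groups did not overlap in 1576 genes (18.2%), 419 with ML above (4.83%) and 1157 with ML below (13.3%).

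The 10 genes lower in ML with the smallest p values without overlap of the groups had log2 changes from -6.60 (ARHGAP5, given above) to -0.77. HAX1, a mitochondrial protein that protects cells from apoptosis, was at 7.05, 4.87 and 6.67 FPKM in ML and 14.6, 14.0 and 16.1 in wL (log2 change -1.27, SE 0.18, limma adjusted p = 0.17). NEDD8, the ubiquitin-like protein that activates cullin ligases, was at 41.7, 55.9 and 39.6 in ML and 85.6, 74.6 and 82.3 in wL (-0.83, SE 0.18, adjusted p = 0.38). TSR2, a chaperone of ribosome assembly, was at 17.8, 17.1 and 13.1 in ML and 36.1, 24.8 and 31.2 in wL (-0.93, SE 0.19). Each of the 3 ML values of these genes was below each of the 3 wL values, and for HAX1, NEDD8 and TSR2 the follicular means of both genotypes lay above every ML value.

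DPM3, which anchors the enzyme that makes dolichol phosphate mannose for glycosylation, was at 26.2, 36.1 and 26.9 FPKM in ML and 54.3, 57.0 and 71.4 in wL (log2 change -1.04, SE 0.22). CHMP5, a subunit of the membrane-cutting ESCRT-III complex, was at 37.8, 41.1 and 30.5 in ML and 83.4, 52.7 and 62.5 in wL (-0.84, SE 0.19). VAMP8, a SNARE of late endosomes and of secretion, was at 16.0, 17.8 and 14.0 in ML and 30.5, 21.6 and 32.4 in wL (-0.80, SE 0.17). ZNHIT1, a subunit of the complex that places histone H2A.Z, and CCDC167, a membrane protein of little known function, had the same even pattern with changes of -0.77 (SE 0.17) and -0.98 (SE 0.19). TAPT1, which is needed for normal cilium formation, was at 1.74, 5.23 and 1.98 in ML and 8.69, 10.7 and 12.4 in wL (-1.95, SE 0.37, limma adjusted p = 0.37). After rescaling to equal sums the changes of the 10 genes of this group ran from -6.59 to -0.62. That step moved the median of all genes only from -0.157 to -0.019, too little to turn any of these directions.

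The largest differences among lower genes were uneven over the libraries. CDO1, which starts the breakdown of cysteine to taurine, was at 57.5, 23.8 and 12.0 FPKM in ML and 112, 80.0 and 340.3 in wL (log2 change -2.51, SE 0.59, limma adjusted p = 0.38). AQP5, a water channel of secretory epithelium, was at 61.6, 24.7 and 0.520 in ML and 94.1, 70.4 and 106 in wL (-3.18, SE 1.32, adjusted p = 0.38). AQP5, PPIL6 (3.64, 0.739 and 0.147 in ML) and CIMIP1 (5.13, 3.94 and 0) were highest in ML1 and lowest in ML3, as the ciliated score was, though CIMIP1 was highest among wL in wL2 (11.9), where that score was lowest. Without ML2, ML3, wL2 and wF2 the change of AQP5 was -0.70. NACA, which guards nascent proteins at the ribosome, did not follow it, with 104, 401 and 51.2 in ML against 658, 453 and 506 in wL (-2.05, SE 0.58).

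Among genes higher in ML, KIF20B had the most even values. This mitotic kinesin of the dividing cell's midbody was at 2.47, 2.53 and 2.72 FPKM in ML and at 0.752, 0.771 and 0.615 in wL (log2 change 1.72, SE 0.31, limma adjusted p = 0.36), with follicular means of 2.01 in MF and 1.68 in wF, so here wL was the group apart. KIAA0825 was listed at 0 in all 3 wL libraries and stood at 1.82, 4.39 and 0.619 in ML (adjusted p = 0.37).

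FST encodes follistatin, which binds activins and some BMPs and keeps them from their receptors. It was at 3.27, 10.3 and 12.4 FPKM in ML and 0.521, 1.49 and 0.353 in wL (log2 change 3.31, SE 0.74, unadjusted p = 0.0011, limma adjusted p = 0.38). Follicular FST ran from 0.172 to 1.43 in the 6 libraries, so all 3 ML libraries lay above the 9 others. DKK1, LIPG, FNDC1, LRBA and HOXD10 had large positive changes and limma adjusted p of 0.38 each. DKK1, an inhibitor of Wnt signalling, was at 0.444, 7.48 and 20.5 in ML and 0.397, 0.228 and 0.0193 in wL (4.03, SE 1.10), so in ML1 it was hardly above wL1, and without ML2, ML3, wL2 and wF2 the change was 1.16. LIPG, a lipase of vessel walls, was at 2.73, 3.50 and 9.77 in ML and 1.01, 1.09 and 0.286 in wL (2.54, SE 0.69). FNDC1, an extracellular fibronectin domain protein, was at 4.99, 19.3 and 13.9 in ML and 2.02, 2.31 and 0.273 in wL (3.17, SE 0.87). LRBA, a scaffold of vesicle trafficking, was highest in ML1, with 119, 66.4 and 10.7 in ML and 8.79, 5.75 and 4.39 in wL (2.84, SE 0.82). The homeobox gene HOXD10 was at 0.253, 19.3 and 22.4 in ML and 0.110, 0.205 and 0.132 in wL, where ML1 stood near wL. The smooth muscle score was 6.67, 8.16 and 8.93 in ML and 6.07, 8.27 and 5.96 in wL, and its part in the HOXD10 values was not tested.

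**Figure D4:**
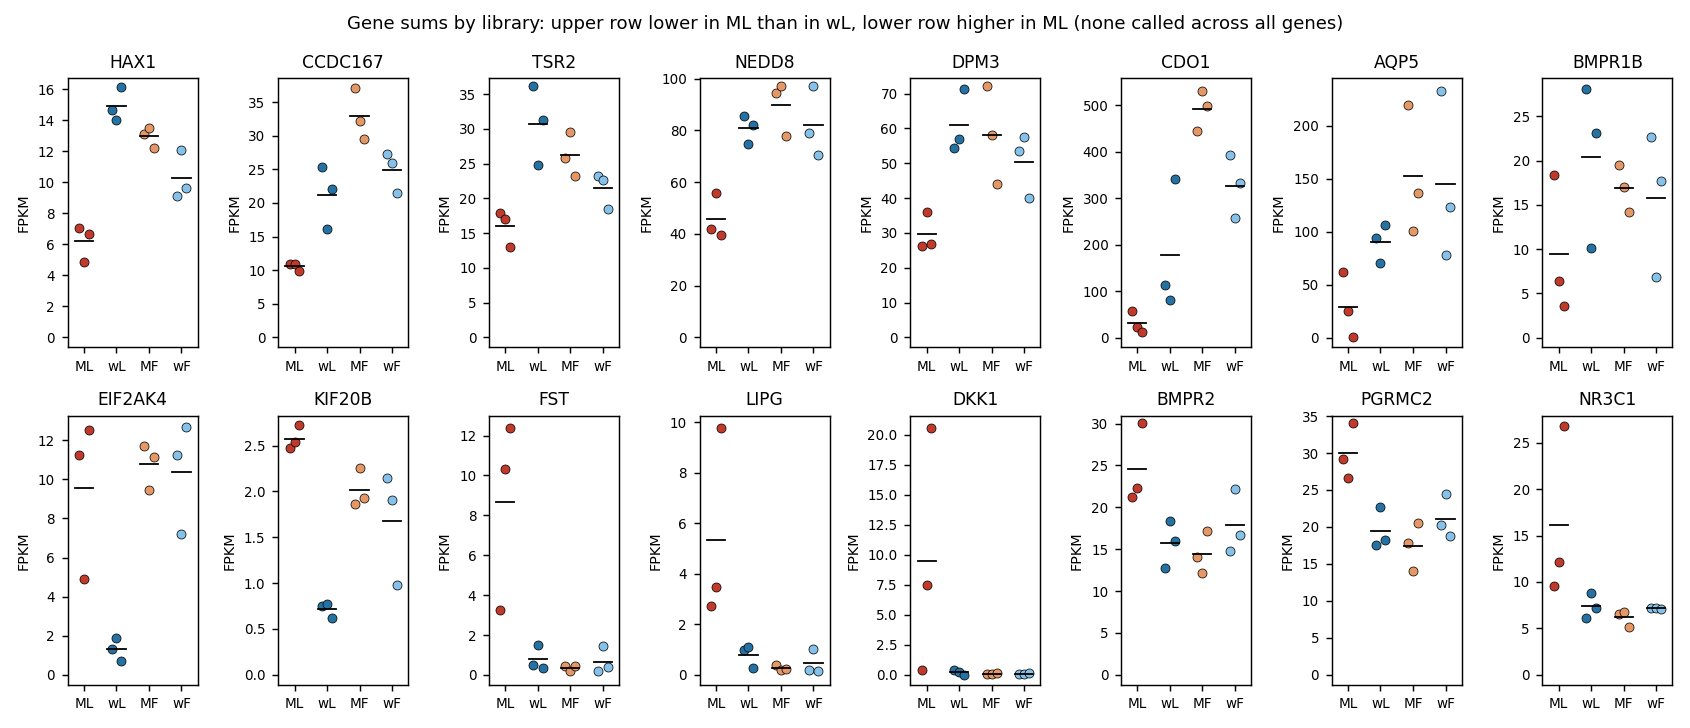
Gene sums in FPKM for 16 genes in the 4 groups, 1 point per library with the group mean as a line, the upper row lower in ML than in wL and the lower row higher. HAX1 (7.05, 4.87 and 6.67 against 14.6, 14.0 and 16.1) and KIF20B (2.47, 2.53 and 2.72 against 0.752, 0.771 and 0.615) have tight groups, while CDO1, DKK1 and BMPR1B spread widely, and 0 of the 16 genes passed the adjusted test.

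Genes encoded by the mitochondrial genome lay above wL in ML. They code for core subunits of the respiratory chain and of ATP synthase, and were taken up as a list after their values had been seen, so they are described without a test of the list. All 13 had a fitted luteal change above 0 (0.37 to 2.09 on the log2 scale), as against 3300 of 8676 genes (38%). Rescaling to equal sums raises ML against wL, so it could not have turned this direction. In 10 of the 13 each ML library was above each wL library (4.83% of all genes), and 10 had an unadjusted p under 0.05 (13.1% of all genes), but none passed in limma (adjusted p 0.36 to 0.47). Their share of the FPKM sum was 1.26, 0.691 and 0.916% in ML and 0.529, 0.423 and 0.485% in wL.

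The difference was not the same for all of them. ND4, a subunit of complex I, was at 384, 121 and 258 FPKM in ML and 57.3, 45.6 and 59.0 in wL (log2 change 2.09, SE 0.43). CYTB, the complex III subunit, was at 385, 185 and 337 in ML and 103, 70.5 and 105 in wL (1.66, SE 0.34), and ATP6 of ATP synthase was at 159, 76.2 and 150.2 in ML and 49.2, 47.2 and 43.1 in wL (1.39, SE 0.25, limma adjusted p = 0.36). COX1, the catalytic subunit of complex IV and the most abundant of the set, was at 1704, 1186 and 1250.1 in ML and 1192, 797 and 1005 in wL (0.47, SE 0.21), and its groups overlapped. Among ML libraries ML1 was highest and ML2 lowest for ND4, CYTB and ATP6, and the cause of this order was not tested. The follicular genotypes went the other way: all 13 were lower in MF than in wF (fitted changes of -1.48 to -0.43, limma adjusted p = 0.997 for each), with each wF library above each MF library in 10 (3.71% of all genes). The interaction of genotype and phase was 0.80 to 3.40 with an unadjusted p under 0.05 in 13 of 13, but the adjusted p was 0.17 to 0.37. Without ML2, ATP6, ATP8, ND4 and ND4L passed in the luteal comparison (adjusted p 0.0049 for ATP6 and 0.045 for ND4).

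**Figure D5:**
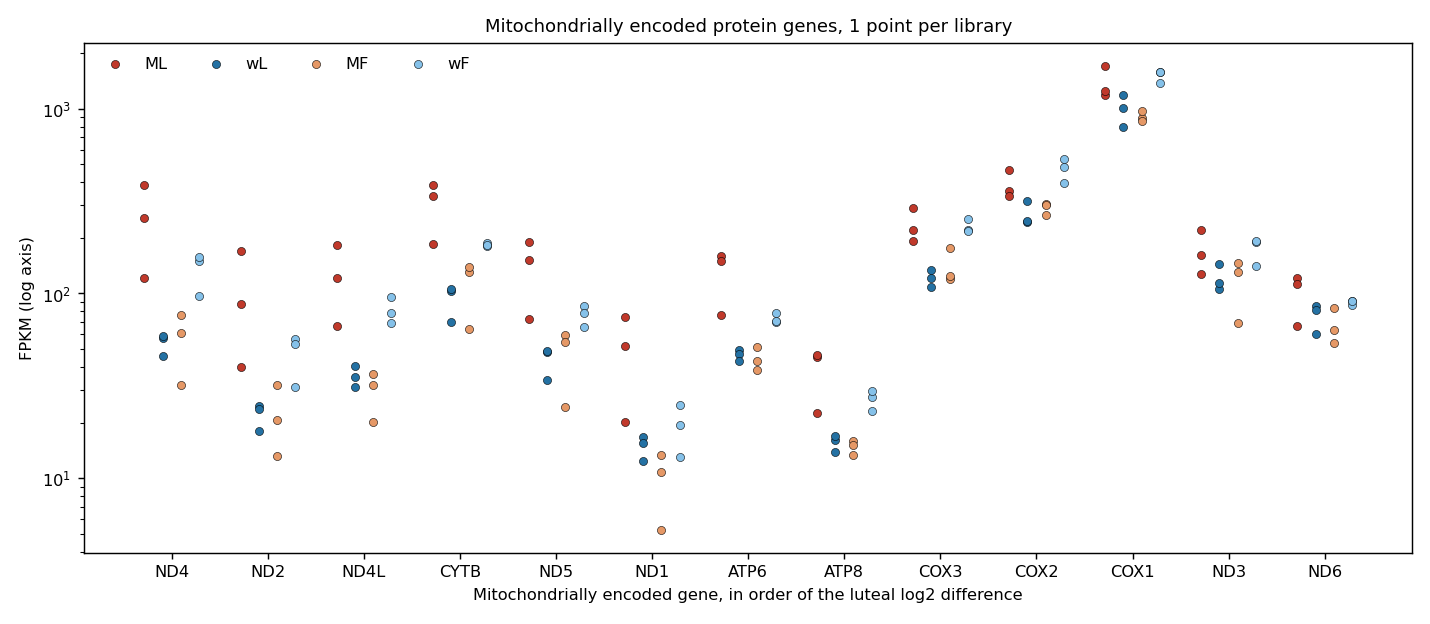
FPKM (log axis) of the 13 mitochondrially encoded protein genes in the 12 libraries, in order of the luteal log2 difference, with 1 point per library. ML lies above wL in every library for 10 of the 13, with the widest gap in ND4 (384, 121 and 258 against 57.3, 45.6 and 59.0), and wF lies above MF in every library for 10.

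BMPR1B, the gene that carries FecB, was at 18.4, 6.40 and 3.59 FPKM in ML and 28.1, 10.1 and 23.1 in wL (log2 change -1.30, SE 0.62, unadjusted p = 0.061, limma adjusted p = 0.39), and the change was -0.47 without ML2, ML3, wL2 and wF2. The groups overlapped, ML3 and ML2 being lowest as in the ciliated markers and wL2 lowest of wL. Of 28 tested genes of the BMP and TGF-beta pathway 19 had a fitted change above 0 and 9 below, against a median over all genes of -0.157, and the list's median was 0.34 above that. Only FST and BMPR2 had an unadjusted p under 0.05, and 0 of the 28 passed the adjusted test. BMPR2, the type 2 receptor that pairs with BMPR1B, was at 21.3, 22.3 and 30.0 in ML and 12.7, 18.4 and 15.9 in wL (0.64, SE 0.22, adjusted p = 0.38). The ligand TGFB1 was at 3.64, 3.57 and 5.76 in ML and 0.957, 2.50 and 1.36 in wL (1.44, SE 0.70), while SMAD4, the shared partner of the signalling SMADs, was at 57.9, 68.4 and 60.9 against 62.6, 63.8 and 60.0 with overlapping groups.

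Genes of steroid reception had higher fitted values in ML more often than lower, with 7 of 11 above 0 and a list median 0.47 above that of all genes, and 0 of 11 passed. PGRMC2, a membrane component that binds haem and is linked to progesterone action, was at 29.2, 26.7 and 34.0 FPKM in ML and 17.5, 22.7 and 18.3 in wL (log2 change 0.62, SE 0.19, limma adjusted p = 0.38). NR3C1, the glucocorticoid receptor, was at 9.60, 12.1 and 26.8 in ML and 6.17, 8.83 and 7.25 in wL (0.98, SE 0.33). HSD11B2, the enzyme that inactivates cortisol, was at 0.680, 3.63 and 8.20 in ML and 0.537, 1.31 and 0.564 in wL (1.78, SE 0.72). In PGRMC2 and NR3C1, 2 of the 11, each ML library was above each wL library (4.83% of all genes), and ML3 was highest among ML in PGRMC2, NR3C1 and HSD11B2. FKBP4, a chaperone of steroid receptors, had the opposite direction with 121, 130 and 135 in ML and 172, 152 and 203 in wL (-0.44, SE 0.29, adjusted p = 0.46). Without wL1 the median of the steroid list was 0.24 above that of all genes.

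Metabolic genes of glycine, serine and one-carbon units lay mostly lower in ML, in 12 of 15 as deposited and 11 of 15 after rescaling, with a list median 0.45 below that of all genes and 0 of 15 past the adjusted test. GCAT, which cleaves threonine products to glycine, was at 4.54, 5.58 and 4.25 FPKM in ML and 9.79, 8.78 and 9.77 in wL (log2 change -0.97, SE 0.34, limma adjusted p = 0.38). GAMT, which makes creatine from a glycine product, was at 23.8, 20.9 and 18.1 in ML and 36.4, 28.5 and 30.6 in wL (-0.60, SE 0.18). MTHFD1, which interconverts folate-bound carbon units, was at 20.0, 18.9 and 19.3 in ML and 30.8, 25.3 and 34.3 in wL (-0.62, SE 0.26). In these 3 genes and DLD, 4 of the 15, each ML library was below each wL library (13.3% of all genes). Of 13 genes of PPAR signalling 8 were above 0, with ACSL1, which activates fatty acids, at 8.39, 9.77 and 13.5 in ML and 6.05, 8.12 and 5.19 in wL (0.70, SE 0.29).

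Among 12 sodium-coupled transporters 5 were above 0 and 7 below, and 0 passed. SLC1A1, a glutamate carrier, was at 3.49, 24.7 and 22.6 FPKM in ML and 3.60, 0.499 and 4.22 in wL (log2 change 2.57, SE 0.94, limma adjusted p = 0.38), so ML1 lay within wL, and without ML2, ML3, wL2 and wF2 the change was -0.16. SLC38A1, a glutamine carrier, was at 14.4, 14.3 and 41.6 in ML and 9.39, 7.17 and 12.7 in wL (1.10, SE 0.40). Of 6 genes of hedgehog reception 5 were above 0, with PTCH1, the receptor, at 10.5, 23.7 and 29.1 in ML and 7.51, 15.4 and 9.92 in wL (0.88, SE 0.39). PTCH1 was highest in ML3 among ML and in wL2 among wL, as the smooth muscle score was.

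Tight junction genes divided. The list had 5 of 16 above 0 and a median 0.39 below that of all genes, which was 0.14 above it without ML2, ML3, wL2 and wF2. TJP1 was among the 5 through XM_015101949.1 alone. Its 3 named transcripts together averaged 8.72 in ML and 13.4 in wL, which need not be the total of the gene. CLDN1, a sealing claudin, was at 11.7, 28.9 and 107 FPKM in ML and 12.8, 9.01 and 7.61 in wL (log2 change 1.78, SE 0.67, limma adjusted p = 0.38). Without those 4 libraries the log2 change of CLDN1 was 0.24. CLDN3 in contrast was at 37.6, 16.7 and 12.3 in ML and 46.9, 29.7 and 35.0 in wL (-0.88, SE 0.42). For double-strand break repair 8 of 19 genes were above 0 as deposited and 11 of 19 after rescaling, so the list had no direction beside all genes. RAD50, which holds broken ends together, was at 17.3, 13.2 and 12.3 in ML and 22.7, 16.4 and 21.8 in wL (-0.50, SE 0.20), and XRCC5, which brings ligase partners to the ends, was at 18.1, 13.9 and 14.8 in ML and 24.5, 16.8 and 20.5 in wL (-0.39, SE 0.19). Of 9 centriole genes 7 were below 0 as deposited, CEP152 among them.

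Cell cycle genes were above 0 in 17 of 23, but the levels were low and 1 library carried much of it: the mean log2 level of the list was -0.13, -0.0065 and 1.70 in ML and 0.013, -0.12 and 0.076 in wL. KIF20A, a kinesin of cytokinesis, showed it with 0.243, 0.409 and 2.12 FPKM in ML and 0.132, 0.138 and 0.190 in wL (log2 change 1.53, SE 0.64, limma adjusted p = 0.38). MAD2L1, of the spindle checkpoint, had the opposite sign with 4.75, 6.85 and 4.29 in ML and 7.66, 6.14 and 8.39 in wL (-0.49, SE 0.22). Collagen and matrix genes were above 0 in 9 of 9 with a list median 1.05 above that of all genes, 0.23 with the smooth muscle score in the fit. The matrix genes FN1 (76.7, 98.6 and 98.4 in ML, 20.3, 104 and 28.8 in wL) and MMP2 (67.6, 131 and 157 against 23.6, 129 and 32.8) were as high in wL2 as in ML. Among leukocyte markers 2 of 12 were above 0 as deposited, 6 of 12 after rescaling to equal sums and 3 of 12 after quantile normalization. The macrophage marker AIF1, at 8.95, 3.91 and 4.13 in ML and 14.4, 10.3 and 12.2 in wL (-1.20, SE 0.37), and the secreted lysozyme LYZ, at 10.5, 3.79 and 2.27 against 21.5, 13.8 and 10.1 (-1.66, SE 0.72), were the members with an unadjusted p under 0.05, and LYZ of ML1 lay within the wL range.

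The remaining lists held few tested genes or no common direction, and 0 of their members passed. Fibroblast genes were above 0 in 7 of 7, endothelial genes in 4 of 7, secretory genes in 1 of 3, translation elongation genes in 2 of 5 and immediate early and heat shock genes in 3 of 8. The fibroblast score was 6.68, 7.90 and 8.51 in ML and 6.20, 7.91 and 6.75 in wL, close to the order of the smooth muscle score. UPK1B, a mesothelial marker, was at 21.3, 13.3 and 1.22 FPKM in ML and 25.9, 5.95 and 93.4 in wL, and HBQ1, the tested red blood cell gene, stayed under 1 FPKM in all 6 luteal libraries.

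Of 15431 lncRNAs tested 1 passed (0.00648%), LNC_000289, which was at 1.31, 0.996 and 0.932 FPKM in ML and listed at 0 in wL (limma adjusted p = 0.026). Follicular values of 0.237 to 0.676 lay between the luteal groups, and its interaction did not pass (adjusted p = 0.63). The call was lost without ML1 (adjusted p = 0.060), ML3 (0.22), wL1 (0.17) or wL3 (0.19). Without adjustment 855 lncRNAs (5.54%) had a p under 0.05, 427 higher and 428 lower.

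The lncRNAs next in line had adjusted p of 0.32 and more. LNC_012551 was at 0.0643, 0.136 and 0 FPKM in ML and 1.66, 0.488 and 2.05 in wL (log2 change -3.05, SE 0.64, limma adjusted p = 0.32). LNC_007979 was at 0.590, 0.474 and 0.102 in ML and 1.98, 1.40 and 4.35 in wL (-2.48, SE 0.53, adjusted p = 0.35), below its follicular means of 9.54 in MF and 7.63 in wF. On the higher side LNC_019349 was at 4.23, 4.08 and 7.27 in ML and 0.658, 1.96 and 0.914 in wL (2.13, SE 0.54, adjusted p = 0.67). LNC_002763 was at 1.0, 0.882 and 1.33 in ML and listed at 0 in wL (adjusted p = 0.56). These 4 were picked from lncRNAs whose groups did not overlap, which were 1210 (7.84%) of those tested. LNC_006353, the lncRNA that took the largest share of the FPKM, was at 23439, 10456 and 16817 in ML and 8023, 11444 and 6797 in wL (0.91, SE 1.61, adjusted p = 0.97), so ML2 lay within the wL range. The lncRNA share of the FPKM sum without LNC_006353 was not tested.

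Whether a genotype difference in the luteal phase was unlike that in the follicular phase was tested as the interaction. It was called for 5 of 31290 mRNA transcripts (0.016%, with 2943, or 9.41%, at an unadjusted p under 0.05), for 0 of 15431 lncRNAs (801, or 5.19%, at an unadjusted p under 0.05 in limma) and for 1 of 8676 gene sums (0.0115%, with 1130, or 13%). PARD3 and LIG4 were the called luteal transcripts among these 5. Both interaction calls were lost with equal sums (adjusted p = 0.055 each), quantile normalization (0.078 and 0.066), an added value of 1 (0.44 and 0.12) and a replicate block (0.19 each), so a dependence on phase rests on the scale and the fit. For FAM217B, CEP152, KIAA1217, WAPL, RBM27, KASH5, ZNF354C and XM_012177086.1 the adjusted p of the interaction was 0.087 to 0.44, so it was not shown that their luteal difference differs from the follicular one.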

How the data were processed

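RNA of the oviduct isthmus was sequenced in 12 libraries, 3 ewes in each of 4 groups. The deposited values were FPKM, which the authors obtained by trimming with fastp, alignment to Oar_v3.1 with HISAT2 and quantification with StringTie, with no further scaling known here. Tool versions are not given in the sources used here. No raw counts were used, so no count model was fitted and no counting error can be given. Values of 63643 transcripts were taken as log2(FPKM + 0.1), which understates the change of low transcripts.

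Transcripts whose FPKM averaged 0.1 or more were tested with limma 3.58.1 in R 4.3.3 (trended variance, 4 group means over 12 libraries, Benjamini-Hochberg adjustment over all transcripts of the kind). A call required an adjusted p under 0.05 and a log2 change of 1 or more in either direction. RefSeq accessions gave a gene to 15202 of 43674 mRNA transcripts (34.8%, mostly with the version ignored), and their FPKM were summed to 10771 genes, of which 8676 were tested. A further 596 transcripts took their name from the study's list of differentially expressed transcripts. They were not summed into genes but are held in the totals of named transcripts. Genes were thus covered in part, and gene sums can miss transcripts. Library summaries and transcript totals were compared with 2-sided exact permutation tests, for which 0.1 is the smallest p that 3 against 3 allow. The groups are separate ewes. Limma p-values set a difference against a spread pooled over the 12 libraries, not that of the 6 luteal ewes alone. For the called transcripts seen in wL only, the 9 other libraries at or near 0 add almost no spread, which can lower their p-values.

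Named features were every called one, per direction the 10 genes and mRNA transcripts and 5 lncRNAs of smallest p without overlap of the groups, the 10 genes of largest change, up to 4 members of each of 21 lists, and features that the study names. Some of them are given here only as counts. The members and lists were chosen with earlier results of these data known. Scripts were tested on simulated data. Other added values, filters, scalings, fits and left-out libraries were tried.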

Additional observations from a re-analysis of the deposited data

Results flagged for a closer look

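The genotype effect differed between the luteal and the follicular phase, by the interaction term in limma, for 5 mRNA transcripts (adjusted p = 0.040 for each) and 1 gene sum. These calls depended on the fit: of the 5 transcripts, only that of EPB41L1 was called with equal sums (adjusted p = 0.046) and 0 with quantile normalization, an added value of 1 or a replicate block, while the gene sum was called with all of these but the block (0.096).

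The interaction of the PARD3 transcript XM_015099548.1 was -4.12 (SE 0.49), from a change of -4.65 in the luteal and -0.53 in the follicular phase. That of the LIG4 transcript XM_012184942.1 was -4.61 (SE 0.55), its values being above 0 in wL and listed at 0 in every other library.

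The EPB41L1 transcript XM_015099855.1, of a protein that links the membrane to actin, was at 0.897, 0.521 and 1.53 FPKM in ML and at 0.715, 1.66 and 0.743 in wF, and was listed at 0 in wL and MF, an interaction of 6.74 (SE 0.69). XM_015103725.1, which carries no gene name here, had the reverse arrangement with 0.586, 0.834 and 0.567 in wL, 1.08, 0.546 and 0.545 in MF and under 0.06 in ML and wF (-5.30, SE 0.60). In these 2 transcripts the genotypes thus exchanged places between the phases.

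BUB1, a kinase of the spindle checkpoint, differed through the follicular phase, with XM_012173898.2 at an interaction of -4.79 (SE 0.57) and its gene sum at -4.79 (SE 0.51, limma adjusted p = 0.018). It was at 2.20, 3.42 and 3.03 FPKM in MF, listed at 0 in ML and near 0 in wL and wF, so the luteal groups hardly differed in it.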

How the results depend on the processing

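Of 1361 values of 86 single features under the alternatives, 1276 kept direction and side of the threshold, 60 lost the call, 24 gained one and 1 reversed: the SLC1A1 gene sum, at -0.16 without ML2, ML3, wL2 and wF2. Fits without these 4 libraries and with a marker score were chosen after seeing the data. The 10 mRNA transcripts, 1 lncRNA and 0 genes called between ML and wL became 5, 0 and 1 with an added value of 1, 1 mRNA transcript and 0 lncRNAs with a mean FPKM of at least 1, 4 and 0 in a fit of the luteal libraries only, 223, 21 and 14 without the 4 libraries, 2 mRNA transcripts with the smooth muscle score and 3 mRNA transcripts and 0 lncRNAs with the ciliated score. With each luteal library left out in turn they ranged from 11 to 56, 0 to 4 and 0 to 12. The 5 mRNA transcripts, 0 lncRNAs and 1 gene called for the interaction became 0 mRNA transcripts with an added value of 1, 19 and 3 genes without a filter, 0 and 0 genes with a mean FPKM of at least 1, 1 mRNA transcript with equal sums, 0 with quantile normalization, 190 and 11 genes without the 4 libraries, 0 and 0 genes with the smooth muscle score, and 0 mRNA transcripts, 2 lncRNAs and 0 genes with the ciliated score. With a library left out they ranged from 0 to 20 mRNA transcripts and from 0 to 7 genes. The cause of these shifts was not tested.

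The replicate numbers did not pair the ewes, since same-numbered ML and wL libraries had correlations of 0.35, 0.19 and -0.19 in their deviations over gene sums and 3 of 6 libraries correlated best with their own number. With a replicate block 2 mRNA transcripts (PARD3 and LIG4), 0 lncRNAs and 0 genes were called between ML and wL, and 0 mRNA transcripts and 0 genes for the interaction.

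Relative to the median of all genes, list medians moved for transporters to 0.28 (smooth muscle score), for tight junctions to 0.14 (without the 4 libraries), -1.9e-05 (smooth muscle score) and 0.11 (ciliated score), for translation elongation to -0.16, -0.19 and -0.24 in the same order, for collagens to 0.23 (smooth muscle score) and 0.30 (ciliated score), and for smooth muscle to 0.27 and 0.27. They moved for secretory genes to -0.0084 and for fibroblasts to -0.058 with the ciliated score, and without the 4 libraries to 0.39 for leukocytes and 1.16 for the red blood cell gene, which was not left under a mean FPKM of at least 1. With a library left out the ranges were 0.24 to 0.52 for steroid genes, -0.66 to -0.060 for tight junctions, -0.15 to 0.14 for translation elongation and -0.28 to 0.15 for leukocytes. Read counts were not used, so low FPKM carry no interval.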

Other observations

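None of the features that the study discusses by name had a called luteal difference here. With DESeq, unlike the limma fit of FPKM used here, the study reported C2CD5, EPB41L1, EML4, VIRMA and LNC_006270 as differentially expressed in every comparison, ML against wL included. LNC_018420 was at 0, 0.672 and 7.07 FPKM in ML and listed at 0 in wL (limma adjusted p = 0.84), and LNC_016630 was listed at 0 in ML against 283, 0 and 0 in wL (adjusted p = 0.91), so each rested on few libraries. LNC_016628 and LNC_013441 were listed at 0 in all 6 luteal libraries.

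The named transcripts of EEF1D summed to 0, 0 and 244 FPKM in ML and to 312, 0 and 0 in wL, beside 139 to 345 in the 6 follicular libraries. The named transcripts of VIRMA summed to 54.6, 9.76 and 9.30 in ML and 7.36, 6.72 and 3.95 in wL. These groups did not overlap (exact permutation p = 0.1, the smallest possible), with ML1 high through XM_004011833.3. Those of C2CD5 came to 8.91, 7.51 and 6.96 against 21.4, 7.98 and 16.9 (exact permutation p = 0.2), and those of EML4 overlapped as well (exact permutation p = 0.6). MARK3, a kinase of cell polarity, summed to 18.2, 20.1 and 22.8 in ML and 16.4, 17.5 and 21.3 in wL (exact permutation p = 0.4). NES, an intermediate filament protein, was at 2.15, 6.41 and 4.74 in ML and 2.04, 3.84 and 2.58 in wL, with overlapping groups.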
